A study of Mus musculus with 24 samples.

Results

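Slc22 organic ion transporters are membrane proteins that carry small charged molecules. This report describes 9 of them in mouse kidney, Slc22a2, Slc22a4, Slc22a5, Slc22a6, Slc22a7, Slc22a8, Slc22a12, Slc22a13 and Slc22a30, chosen by gene symbol among the 37315 genes of the table. The 18 kidney libraries were prepared from the same total RNA of the left kidney of an adult female 129S1/SvImJ x CAST/EiJ F1 mouse, labelled control in every case. Experiment 1 used the NEBNext poly-A kit with 100 ng of RNA, Experiment 2 the SMARTseq v4 kit with 10 ng and Experiment 3 the same SMARTseq v4 kit with 0.1 ng, with 6 replicate libraries each. All libraries thus share 1 animal and 1 RNA preparation, and p-values measure the spread between libraries. Experiment 1 differs from the others in kit and input at once, which cannot be told apart, whereas Experiments 3 and 2 differ in input with the kit held. Abl.1 and Abl.2 are clonal lines of immortalised B cells of the same cross, each a single clone, with 2 control libraries each at 10 ng and a second sequencing run of both Abl.2 libraries.

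The Slc22 family holds polyspecific carriers of organic cations, organic anions and zwitterions. In the proximal tubule, basolateral members take drugs, toxins and metabolites from the blood into the cell, and apical members exchange anions such as urate with the tubular fluid. The family is also known for tandem gene clusters and for strong differences of individual members between kidney and liver.

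Allelic imbalance (AI) was the share of a gene's allelic counts that stands in the maternal column. Of 11 imprinted genes with enough counts, 10 lay on the side opposite to the column names, 1 of them, Phlda2, at 0.460 with no call in any experiment, so AI is given here as a column share with no parent of origin. Total allelic counts ranged from 6138693 to 6702351 per kidney library, and the overdispersion of AI (Quality Correction Coefficient, QCC) was 1.85 in Experiment 1 and, with SMARTseq, 1.47 at 10 ng and 2.59 at 0.1 ng. Replicate 1 of Experiment 1 stood apart, with a mean QCC of 2.09 with its 5 partners, against 1.76 to 1.83 for the other libraries, and results that rest on it are given without it too. The 6 proximal tubule markers were all measured, with a summed level of 21732 to 23575 CPM (allelic counts scaled to the library total) in Experiment 1. The same sum was 15730 to 15916 CPM at 10 ng and 16452 to 17051 CPM at 0.1 ng. The single markers did not move alike. In Experiments 1, 2 and 3, mean CPM was 3075, 1020 and 930 for Lrp2 and 1213, 229 and 250 for Cubn. It was 9950, 6268 and 7465 for Slc34a1 and 630, 450 and 501 for Slc5a2. Kap had 7239, 7359 and 7097, and Slc5a12 had 495, 501 and 430. The counts of Kap were nearly constant, at 45837 to 46076, 46913 to 47105 and 46896 to 46926 per library. In Experiment 1 they stayed so although library totals ranged from 6138693 to 6702351. The CPM of Kap, which is part of the summed level, may therefore not follow its RNA level. The cause was not tested. Leukocyte markers summed to 3.76 to 10.6 CPM over the 18 libraries and the 2 erythroid markers in the table, of 3 listed, had no count. Other segments moved in different directions. Collecting duct markers summed to 1030 to 1129 CPM in Experiment 1 and to 1722 to 1794 and 2173 to 2302 CPM in the SMARTseq experiments, whereas the distal convoluted tubule marker went from 1034 to 1116 CPM down to 327 to 339 and 379 to 433. Their part in the results below was not tested. The 18 libraries share 1 RNA, so cell numbers and RNA per cell are the same in the 3 experiments. For the kidney level itself, and beside the clones, these cannot be told apart in bulk RNA.

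Several of the transporters have family members as neighbours. On GRCm38, Slc22a6 (ENSMUSG00000024650, chromosome 19, 8617996 to 8628299) follows Slc22a8 (ENSMUSG00000063796, chromosome 19, 8591254 to 8611834), and Slc22a30 (ENSMUSG00000052562, chromosome 19, 8335371 to 8405111) and Slc22a12 (ENSMUSG00000061742, chromosome 19, 6535845 to 6543019) lie on the same chromosome. Slc22a4 (ENSMUSG00000020334, chromosome 11, 53983123 to 54028090) and Slc22a5 (ENSMUSG00000018900, chromosome 11, 53864542 to 53891660) are separated by Slc22a21. Slc22a2 (ENSMUSG00000040966, chromosome 17, 12584132 to 12628488) and Slc22a7 (ENSMUSG00000067144, chromosome 17, 46432183 to 46438457) lie far apart, and Slc22a13 (ENSMUSG00000074028, chromosome 9, 119192974 to 119209098) falls inside the annotated span of Slc22a14. All counts are exonic, since the authors summed them over merged exons without regions shared by genes. Of the 50-base windows of their annotated transcripts, 36.01% in Slc22a13 were also present in another gene, mostly Slc22a13b-ps, 34.2% in Slc22a30, mostly Slc22a28, and 26.3% in Slc22a5, mostly Slc22a21. The counts of these 3 genes are therefore uncertain, while the share was 4.15% in Slc22a2, 2.64% in Slc22a4, 0.457% in Slc22a8 and 0 in Slc22a6, Slc22a7 and Slc22a12.

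Promoter sequences from RefSeq (GRCm38.p6, 250 bases before to 50 after the start) were matched by symbol for 8 of the 9 transporters, and Slc22a7 was not matched. The promoters of 2 pairs on the same chromosome are shown, Slc22a6 with Slc22a8 for the letters searched and Slc22a4 with Slc22a5 for their CG content. In the promoters of Slc22a6 and Slc22a8, capitals mark the letters GTTAAT, the half-site of the hepatocyte nuclear factor HNF1, searched on both strands.

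Slc22a6, chr19:8617746-8618045, + strand: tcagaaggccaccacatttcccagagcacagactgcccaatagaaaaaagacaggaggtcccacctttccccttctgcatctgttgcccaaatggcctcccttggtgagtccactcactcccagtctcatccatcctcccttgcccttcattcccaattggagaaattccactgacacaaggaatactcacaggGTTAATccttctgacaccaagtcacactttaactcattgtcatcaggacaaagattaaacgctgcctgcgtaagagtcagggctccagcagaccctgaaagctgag

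Slc22a8, chr19:8592932-8593231, + strand: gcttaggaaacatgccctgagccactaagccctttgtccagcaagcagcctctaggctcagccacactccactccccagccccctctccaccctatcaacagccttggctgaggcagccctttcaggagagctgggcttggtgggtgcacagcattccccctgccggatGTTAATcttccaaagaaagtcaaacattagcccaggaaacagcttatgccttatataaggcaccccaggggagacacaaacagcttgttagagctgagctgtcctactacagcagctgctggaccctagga

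Slc22a4, chr11:54028055-54028354, - strand, with CG in capitals: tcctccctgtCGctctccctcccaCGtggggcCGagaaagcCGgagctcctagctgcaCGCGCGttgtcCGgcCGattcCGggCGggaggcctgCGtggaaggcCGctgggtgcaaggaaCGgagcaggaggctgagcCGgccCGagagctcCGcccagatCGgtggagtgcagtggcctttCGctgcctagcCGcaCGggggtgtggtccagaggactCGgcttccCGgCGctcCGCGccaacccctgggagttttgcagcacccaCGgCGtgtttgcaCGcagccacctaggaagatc

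Slc22a5, chr11:53891654-53891953, - strand, with CG in capitals: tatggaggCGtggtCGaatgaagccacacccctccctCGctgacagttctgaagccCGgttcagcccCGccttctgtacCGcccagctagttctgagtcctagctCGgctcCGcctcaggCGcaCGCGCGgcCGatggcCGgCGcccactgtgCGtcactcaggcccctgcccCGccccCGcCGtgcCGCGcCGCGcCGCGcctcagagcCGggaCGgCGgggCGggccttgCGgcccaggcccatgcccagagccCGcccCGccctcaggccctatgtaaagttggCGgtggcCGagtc

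GTTAAT was found once in each of the first pair and in none of the other 6 matched promoters, against 7.10% of all 32851 promoters of the same length. The letters CAAAGTCCA, an HNF4 site, were in none of the 8, against 0.475% of all promoters. CG dinucleotides numbered 2 in Slc22a6, 1 in Slc22a8, 29 in Slc22a4 and 34 in Slc22a5, with a median of 7 over all promoters, and GC content was 50%, 55%, 69% and 72.7%. The lowest GC content of the 8 was that of Slc22a30, 27.7%. These matches describe the sequence only.

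The organic anion transporters of the basolateral membrane come first. Counts depend on the number of SNPs in a gene, so levels are compared between libraries and not between genes. Slc22a8 (OAT3) had 1096 to 1176 CPM in Experiment 1 (median 1141), 679 to 696 in Experiment 2 (median 689) and 770 to 881 in Experiment 3 (median 818). On library totals, which all CPM ranges here and below use unless stated, those of the 3 experiments did not overlap. Experiment 1 was highest and Experiment 2 lowest. With library sizes scaled by the trimmed mean of M values (TMM), Experiment 1 reached down to 931 and Experiment 3 up to 951, so these 2 overlapped. Slc22a6 (OAT1), the classical carrier of para-aminohippurate, had 844 to 915 CPM in Experiment 1 (median 867), 364 to 390 in Experiment 2 (median 376) and 460 to 484 in Experiment 3 (median 474). It kept the order of Slc22a8, with no overlap on either scaling.

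Slc22a7 (OAT2), a carrier of organic anions and nucleotides, was lowest in Experiment 1 and highest in Experiment 3. It had 262 to 318 CPM in Experiment 1 (median 270), 386 to 413 in Experiment 2 (median 393) and 459 to 534 in Experiment 3 (median 493), and no ranges overlapped. The highest value of Experiment 1 was that of replicate 1, and without it the range was 262 to 278 CPM. Slc22a12 (URAT1), the apical urate exchanger, had 406 to 427 CPM in Experiment 1 (median 410), 72.5 to 86.7 in Experiment 2 (median 79.8) and 109 to 133 in Experiment 3 (median 122). Its mean of 414 ± 8.88 CPM (SD, n = 6) in Experiment 1 was 5.19 times that of Experiment 2, 79.8 ± 5.37. Slc22a13 (OAT10), an apical exchanger of urate and nicotinate, had 203 to 248 CPM in Experiment 1 (median 213), 229 to 247 in Experiment 2 (median 238) and 237 to 282 in Experiment 3 (median 261). All ranges of Slc22a13 overlapped, but without replicate 1 Experiment 1 reached only 215 CPM and lay below both others. With TMM library sizes, Experiment 1 had 173 to 216 with replicate 1 kept and lay below both others. Slc22a30 was the member with the fewest counts, with 179, 308 and 289 pooled counts in the 3 experiments. Its level was 3.15 to 6.03 CPM (median 4.76), 5.63 to 9.54 (median 8.31) and 4.69 to 9.37 (median 7.18), with overlap throughout. With TMM library sizes, Experiment 1 had 2.68 to 5.12 and lay below Experiment 2, which had 6.11 to 10.4.

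The carriers of cations, carnitine and ergothioneine follow. Slc22a2 (OCT2), the basolateral uptake carrier of organic cations, had 135 to 156 CPM in Experiment 1 (median 146), 115 to 128 in Experiment 2 (median 125) and 128 to 140 in Experiment 3 (median 134). On library totals, Experiment 2 lay below Experiment 1 without overlap, by a narrow margin, and Experiment 3 overlapped both. With TMM library sizes the order differed, with means of 124, 134 and 145 in Experiments 1, 2 and 3. Experiments 1 and 2 then overlapped, and Experiment 3, from 138, lay above Experiment 1, up to 133. Slc22a5 (OCTN2), the carnitine transporter, had 419 to 472 CPM in Experiment 1 (median 438), 289 to 295 in Experiment 2 (median 290) and 259 to 296 in Experiment 3 (median 283). Experiment 2 had a mean of 291 ± 2.17 CPM (SD, n = 6), and both SMARTseq experiments lay below Experiment 1 without overlap. Slc22a4 (OCTN1), the ergothioneine transporter, had 27.5 to 35.8 CPM in Experiment 1 (median 31.9), 23.6 to 27.9 in Experiment 2 (median 26.3) and 19.96 to 30.8 in Experiment 3 (median 23.2). All its ranges overlapped, but without replicate 1 Experiment 1 had 31.4 to 35.8 CPM and lay above both others. With TMM library sizes, Experiment 1 without replicate 1 had 26.7 to 30.4 and overlapped both others.

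**Figure D1:**
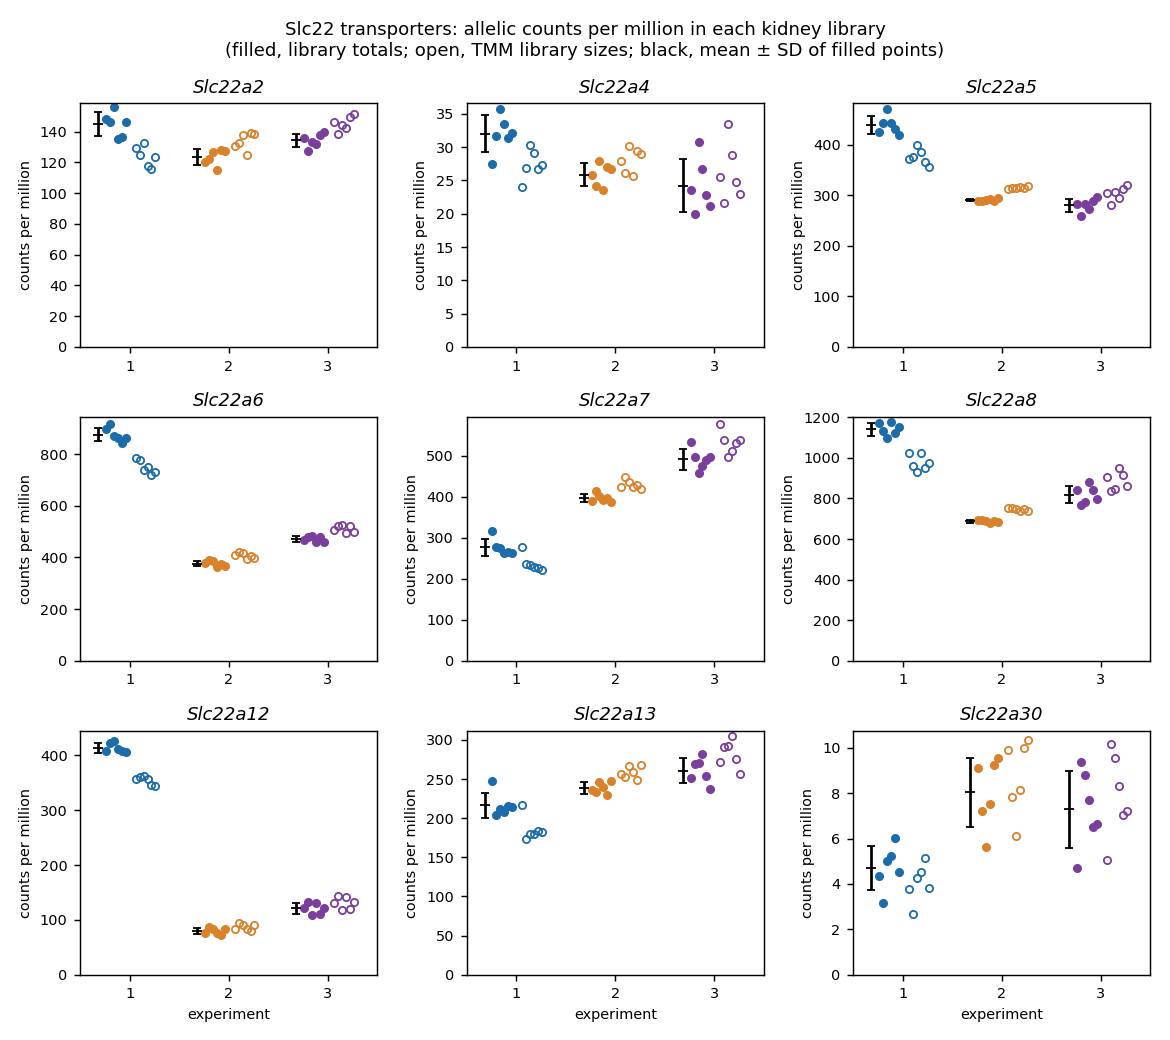
Allelic CPM (y axes, from 0) of the 9 transporters in the 6 libraries of each experiment (x axes), with filled points on library totals, open points on TMM library sizes and the mean ± SD of the filled points in black. Slc22a6, Slc22a8 and Slc22a12 were highest in Experiment 1 and lowest in Experiment 2, and Slc22a7 was lowest in Experiment 1.

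Abundance was tested between experiments to ask how far kit and input alter the measured level of a transporter, with edgeR's quasi-likelihood test on total allelic counts, normalised by the trimmed mean of M values (TMM). All 9 transporters passed the filter on low counts. Between Experiments 2 and 1, 4 of the 9 were higher in Experiment 2, where 35.7% of all genes were, and 4 were lower, where 35.9% were. Slc22a12 had a log2 fold change of -2.03 ± 0.0541 (SE), that is 4.09-fold lower in Experiment 2 (edgeR adjusted p = 4.39e-22). Slc22a6 was 1.84-fold lower, Slc22a8 1.31-fold lower and Slc22a5 1.19-fold lower. Slc22a30 was 2.16-fold higher in Experiment 2 (log2 fold change 1.11 ± 0.211, edgeR adjusted p = 4.18e-05), Slc22a7 1.81-fold higher, Slc22a13 1.39-fold higher and Slc22a2 1.08-fold higher. The call of Slc22a2 was marginal (edgeR adjusted p = 0.0449). Slc22a4 had a log2 fold change of 0.03, with an approximate 95% interval of -0.17 to 0.24. The members' median log2 fold change was 0.03, against -0.04 over all 12375 genes, and the CPM ranges of 6 of the 9 did not overlap, as for 62.0% of all genes.

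Experiment 3 against Experiment 1 shares its control libraries with the preceding comparison, and 4 members were again higher, where 35.8% of all genes were, and 4 lower, where 36.1% were. Slc22a7 was 2.24-fold higher in Experiment 3 (log2 fold change 1.16 ± 0.0459, edgeR adjusted p = 3.27e-18), Slc22a30 1.95-fold, Slc22a13 1.52-fold and Slc22a2 1.17-fold. Slc22a12 was 2.71-fold lower (log2 fold change -1.44 ± 0.0523, edgeR adjusted p = 5.21e-19), Slc22a6 1.47-fold, Slc22a5 1.24-fold and Slc22a8 1.10-fold. Slc22a4 had a log2 fold change of -0.07, with an interval of -0.27 to 0.14. The CPM ranges of 5 members did not overlap, against 54.1% of all genes. The scaling matters here. On library totals alone the median log2 fold change of all genes was -0.38 in Experiment 2 and -0.37 in Experiment 3, against -0.04 in both with TMM. All genes then split into 3335 higher and 5976 lower in Experiment 2, in place of 4415 and 4437, and into 3377 and 5995 in Experiment 3, in place of 4434 and 4468. The members split into 3 higher and 6 lower in both comparisons, because Slc22a2 turned to -0.23 and -0.11 and Slc22a4 was called lower at -0.31 and -0.40. The other 7 members kept their direction.

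Between Experiments 3 and 2, where the kit was the same, 4 members were higher in Experiment 3, where 9.17% of all genes were, and none of the 9 was lower at an edgeR adjusted p under 0.05, where 6.63% were. Slc22a12 was 1.51-fold higher at 0.1 ng (log2 fold change 0.60 ± 0.0549, edgeR adjusted p = 9.06e-09), Slc22a6 1.25-fold, Slc22a7 1.24-fold and Slc22a8 1.19-fold. These are also the 4 whose CPM ranges did not overlap, against 8.72% of all genes. Slc22a13 and Slc22a2 had log2 fold changes of 0.12, with intervals of 0.03 to 0.22 and 0.02 to 0.22 and neither passed the threshold (edgeR adjusted p = 0.0959 for Slc22a13). Slc22a5, Slc22a4 and Slc22a30 had -0.06, -0.10 and -0.14, with intervals that held 0. The members' median was 0.12, against 0.00192 over all genes.

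**Figure D2:**
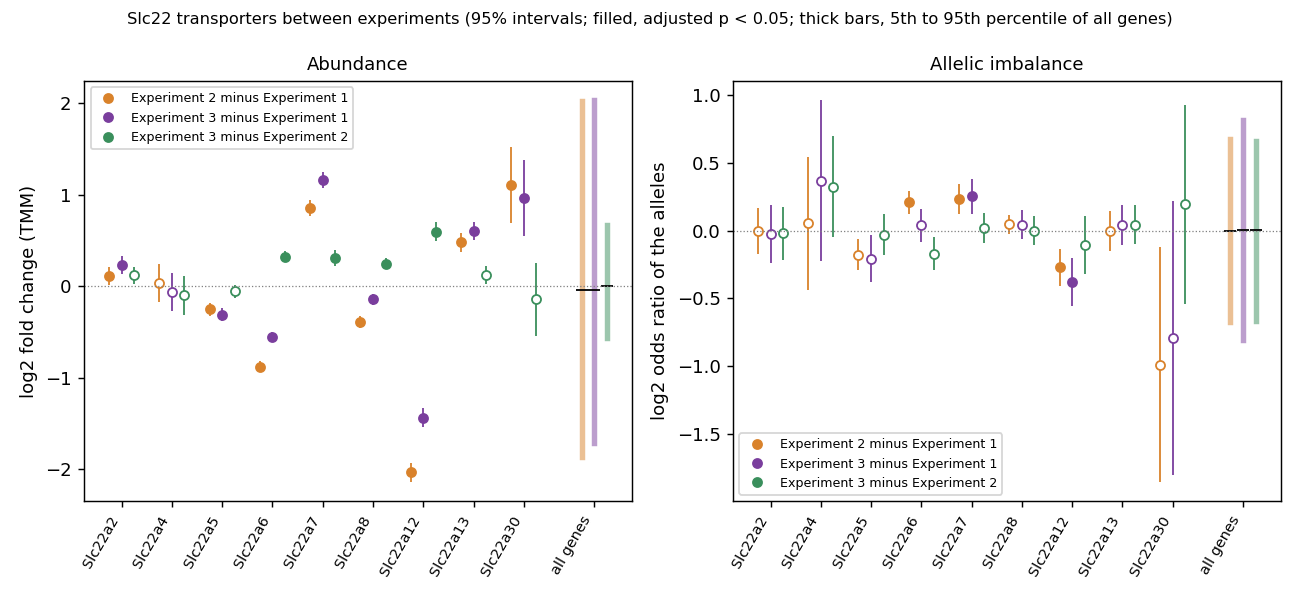
Log2 fold changes (left) and log2 odds ratios of the alleles (right) of the 9 transporters with approximate 95% intervals in the 3 comparisons, with filled points at an adjusted p under 0.05 and thick bars from the 5th to the 95th percentile of all genes with the median as a black line. Slc22a12 at -2.03 lay below the 5th percentile of -1.86 in Experiment 2 minus Experiment 1.

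AI was tested against 0.5 in each experiment with the two-sided proportional test and Bonferroni correction. Counts were pooled over 6 libraries and divided by the square of QCC. QCC is 1 value per experiment over all genes, so a gene's own spread between libraries does not enter these p-values and intervals. In Experiment 1, 5 of the 9 transporters were called, where 18.4% of all genes were. In Experiment 2, 4 were called, where 24.4% were, and in Experiment 3 2 were called, where 14.2% were. Slc22a5 and Slc22a4, the chromosome 11 pair, were called in all 3 experiments and on the same side. The median pooled AI of the 9 was 0.534, 0.534 and 0.520, against 0.501, 0.502 and 0.504 over all genes tested.

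Slc22a5 had an AI of 0.629 to 0.683 in the libraries of Experiment 1 (median 0.652), 0.613 to 0.635 in Experiment 2 (median 0.626) and 0.571 to 0.656 in Experiment 3 (median 0.6248). Every library lay above 0.5, and the pooled AI was 0.653, 0.624 and 0.619, with QCC-corrected 95% intervals of 0.639 to 0.666, 0.611 to 0.637 and 0.596 to 0.642. Its neighbour Slc22a4 had 0.505 to 0.821 in Experiment 1 (median 0.724), 0.669 to 0.738 in Experiment 2 (median 0.726) and 0.729 to 0.798 in Experiment 3 (median 0.759). The spread in Experiment 1 was 3.35 times the binomial one, where the median over all genes was 1.68. The lowest value there, 0.505 from 184 counts, was that of replicate 1, and without it the range was 0.680 to 0.821 and the pooled AI moved from 0.709 to 0.745. Pooled AI was 0.716 in Experiment 2 and 0.761 in Experiment 3, with QCC-corrected intervals of 0.674 to 0.756 and 0.685 to 0.824.

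Slc22a30 had the highest AI of the list. Its pooled values were 0.888, 0.795 and 0.810, and single libraries lay between 0.721 and 0.970 over the 18. It was called in Experiment 1 (Bonferroni adjusted p = 2.01e-04) and Experiment 2 (1.61e-08). It was not called at 0.1 ng (0.493), with 289 pooled counts, a QCC of 2.59 and an interval of 0.669 to 0.8995. At 0.1 ng it was called by the same test with Benjamini-Hochberg adjustment (adjusted p = 2.90e-04) and with an edgeR allele term (edgeR adjusted p = 0.00110). Slc22a12 had 0.526 to 0.561 in Experiment 1 (median 0.538), 0.474 to 0.519 in Experiment 2 (median 0.494) and 0.436 to 0.522 in Experiment 3 (median 0.468). All 6 libraries of Experiment 1 lay above every library of the other experiments, and the gene was called in Experiment 1 (pooled AI 0.542, Bonferroni adjusted p = 9.13e-05) but not in the others.

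Slc22a8 leaned to the paternal column. Its AI was 0.463 to 0.484 in Experiment 1 (median 0.470), 0.472 to 0.493 in Experiment 2 (median 0.480) and 0.456 to 0.516 in Experiment 3 (median 0.480). The pooled values were 0.473, 0.481 and 0.480, with a call in Experiment 1 (Bonferroni adjusted p = 1.20e-05) and none at 10 ng (0.214) or 0.1 ng (1). Its neighbour Slc22a6 lay on the other side of 0.5, with 0.496 to 0.531 in Experiment 1 (median 0.514), 0.534 to 0.562 in Experiment 2 (median 0.549) and 0.472 to 0.540 in Experiment 3 (median 0.528). Pooled AI of Slc22a6 was 0.514, 0.549 and 0.520, and it was called in Experiment 2 (Bonferroni adjusted p = 6.77e-12).

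The remaining members were called in no experiment. Slc22a7 had 0.447 to 0.483 in Experiment 1 (median 0.472), 0.494 to 0.532 in Experiment 2 (median 0.511) and 0.502 to 0.549 in Experiment 3 (median 0.508). All libraries of Experiment 1 lay below 0.5 and below every other library. Slc22a2 had a pooled AI of 0.534, 0.534 and 0.530, with intervals of 0.510 to 0.558, 0.513 to 0.555 and 0.495 to 0.565. Slc22a13 had 0.495, 0.493 and 0.501, with intervals of 0.475 to 0.515, 0.478 to 0.508 and 0.477 to 0.526.

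**Figure D3:**
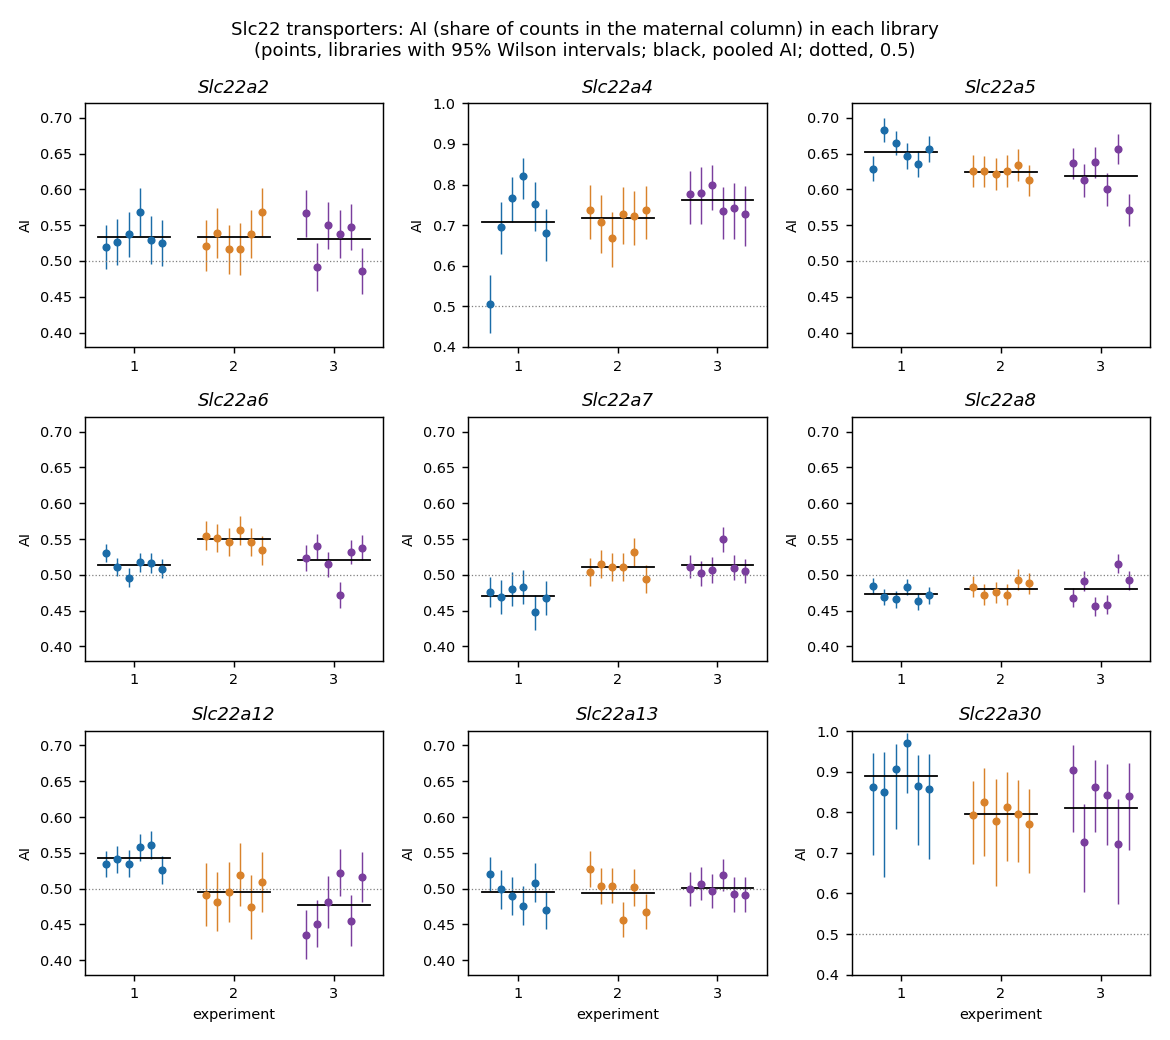
AI, the share of counts in the maternal column (y axes), of the 9 transporters in each library (points with 95% Wilson intervals) by experiment (x axes), with the pooled AI in black and 0.5 dotted. The y axis spans 0.38 to 0.72, except for Slc22a4 and Slc22a30 with 0.4 to 1. The libraries of Slc22a5 all lie above 0.5, and replicate 1 of Experiment 1 stands at 0.505 for Slc22a4.

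Whether AI itself differed between experiments was tested with edgeR's quasi-likelihood test on the allele counts, so that libraries, not reads, set the error. Between Experiments 2 and 1, 3 of 9 transporters differed, where 10.6% of all genes did. Slc22a6 had a higher maternal-column share in Experiment 2, 0.549 against 0.514 (log2 odds ratio 0.21 ± 0.0440, edgeR adjusted p = 0.00139), and so did Slc22a7, 0.511 against 0.471 (0.23 ± 0.0566, adjusted p = 0.00494). Slc22a12 had a lower one, 0.495 against 0.542 (-0.27 ± 0.0712, adjusted p = 0.00979). Slc22a5 had -0.18 ± 0.0594 and missed the threshold (adjusted p = 0.0532). Slc22a5 was called without replicate 1 of Experiment 1 (-0.21, adjusted p = 0.0166), without its replicate 5 (0.0362) and among genes with at least 20 counts in each library (0.0458). With limma on logit AI and with the QCC-corrected two-sample test, none of the 9 was called, whereas DESeq2 called the same number, 3. The two-sample test was adjusted by Bonferroni and the others by the less strict Benjamini-Hochberg method, so these calls are at unlike thresholds. Slc22a6 had a Bonferroni adjusted p of 0.0666 in the two-sample test. Over all genes, 2171 had an unadjusted p under 0.05 in that test, against 2152 by edgeR.

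Between Experiments 3 and 1, 2 transporters differed, where 6.24% of all genes did. Slc22a12 had a pooled AI of 0.478 in Experiment 3 (log2 odds ratio -0.38 ± 0.0912, edgeR adjusted p = 0.0143) and Slc22a7 0.514 (0.25 ± 0.0652, adjusted p = 0.0239). The call of Slc22a7 was lost without replicate 2 of Experiment 1 (adjusted p = 0.0507), replicate 5 of Experiment 1 (0.0663) or replicate 4 of Experiment 3 (0.0538), which left 1 member called, and with the replicate block (0.0515). Slc22a12 was not called with limma on logit AI (Benjamini-Hochberg adjusted p = 0.104), and neither was Slc22a7 (0.188). The QCC-corrected two-sample test, with the stricter Bonferroni adjustment, called neither gene. Slc22a6 had 0.04, with an interval of -0.09 to 0.16. Between Experiments 3 and 2, with the kit held, none of the 9 differed by edgeR, DESeq2, limma or the two-sample test, where 0.659% of all genes did by edgeR, and 1 of the 9, Slc22a6, had an unadjusted p under 0.05 (0.0162, log2 odds ratio -0.17). The interval was widest in Slc22a30, from -0.54 to 0.93, and narrowest in Slc22a7 and Slc22a8, from -0.09 to 0.13 and from -0.11 to 0.10.

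Another 17 Slc22a genes are in the table, of which 14 had at least 50 pooled counts in every experiment. Slc22a16 and Slc22a20 had no count and Slc22a14 too few. In abundance, 14 were tested and 4 were higher and 6 lower in Experiment 2 than in Experiment 1, 6 higher and 2 lower in Experiment 3 than in Experiment 1, and 3 higher and none lower by edgeR in Experiment 3 than in Experiment 2. Of all genes, 35.7%, 35.8% and 9.17% were higher in these comparisons and 35.9%, 36.1% and 6.63% lower. In AI, 8 of 12 tested were called against 0.5 with NEBNext, 8 of 11 with SMARTseq at 10 ng and 5 of 10 at 0.1 ng. The shares of all genes called were 18.4%, 24.4% and 14.2%. Other Slc22a genes of chromosome 19 lay on both sides of 0.5, while Slc22a6 and Slc22a8, on the other side of Slc22a30, lay near it. Slc22a19 had a pooled AI of 0.964, 0.9497 and 0.963 in Experiments 1, 2 and 3, Slc22a26 had 0.708, 0.735 and 0.872, and Slc22a29 had 0.717, 0.6254 and 0.619, with no call in Experiment 3 (Bonferroni adjusted p = 1). Slc22a27 had 0.0578, 0.0502 and 0.0689 and Slc22a28, the gene that shares most sequence with Slc22a30, had 0.199, 0.156 and 0.165, on the opposite side. Slc22a22 on chromosome 15 had 0.976, 0.984 and 0.985.

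Slc22a18 had a pooled AI of 0.499, 0.477 and 0.478, Slc22a23 had 0.474, 0.447 and 0.486, and Slc22a17 had 0.578, 0.513 and 0.480. The pseudogene Slc22a13b-ps had 0.0660 and 0.0309 in Experiments 1 and 2 and 0 of 130 counts in Experiment 3. This would allow a share of up to 2.31% if counts were independent. With a QCC of 2.59 they are not, and the limit is higher. Slc22a13 stayed near 0.5. The genes with few counts were Slc22a15, with 0.336, 0.448 and 0.283, Slc22a21, with 0.580, 0.655 and 0.857, and Slc22a3, with 0.600, 0.366 and 0.776. Slc22a21 and Slc22a3 had under 100 counts in each experiment and no tested AI. Slc22a28 and Slc22a19 were 2.53-fold and 2.63-fold higher in Experiment 2 than in Experiment 1, as Slc22a30 was, and Slc22a23 was 2.91-fold lower (edgeR adjusted p = 2.48e-16, 7.14e-12 and 8.73e-13).

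**Figure D4:**
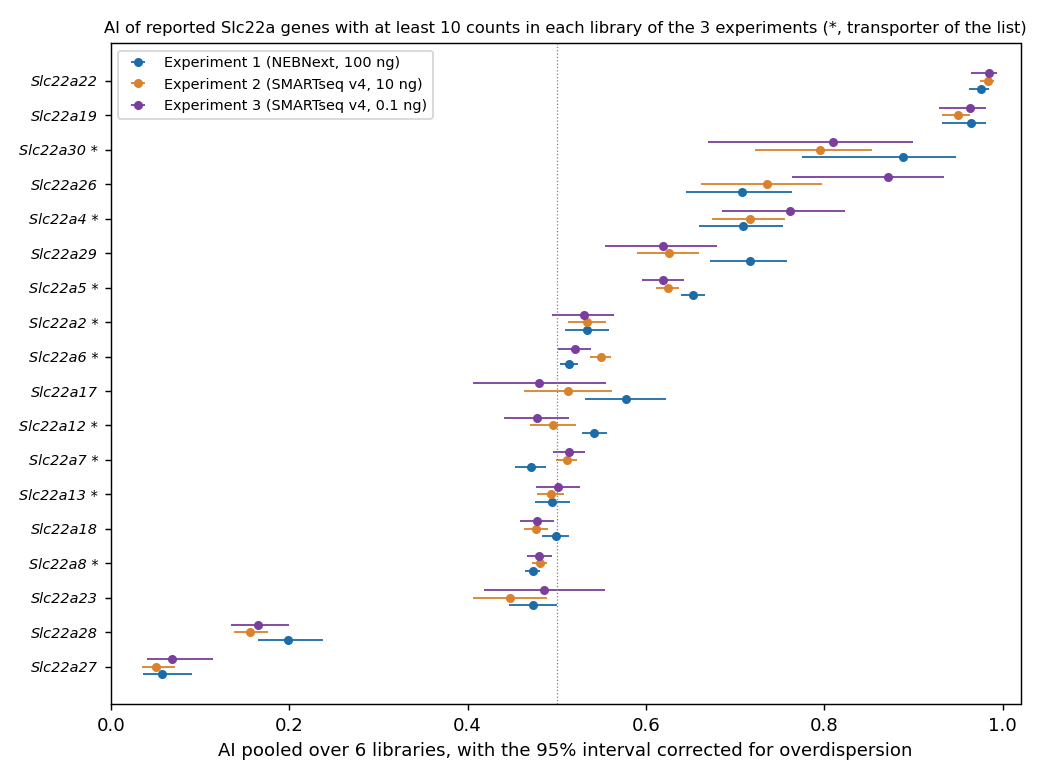
AI pooled over 6 libraries (x axis), with QCC-corrected 95% intervals, of Slc22a genes with at least 10 counts in each kidney library, by experiment (colours), ordered by mean AI, with the transporters of the list starred. Slc22a27 at 0.0502 to 0.0689 and Slc22a22 at 0.976 to 0.985 mark the ends.

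The other genes of tubular organic ion transport were taken from a list of 20, of which 17 were tested. In abundance, 6 were higher and 9 lower in Experiment 2 than in Experiment 1, 6 higher and 7 lower in Experiment 3 than in Experiment 1, and 3 higher and 2 lower in Experiment 3 than in Experiment 2. The shares of all genes were 35.7%, 35.8% and 9.17% higher and 35.9%, 36.1% and 6.63% lower. Slc13a3, the dicarboxylate carrier that supplies the exchange substrate of Slc22a6 and Slc22a8, had 2096 ± 63.2 CPM with NEBNext, 999 ± 25.1 with SMARTseq at 10 ng and 942 ± 67.3 at 0.1 ng (SD, n = 6). It was 1.66-fold and 1.76-fold lower in Experiments 2 and 3 than in Experiment 1. Ggt1, a brush border peptidase, was 1.07-fold lower in Experiment 2 and 1.13-fold higher in Experiment 3. Slc17a3, an apical urate exporter, was 1.09-fold higher in Experiment 2 (edgeR adjusted p = 0.0263) and had a log2 fold change of 0.00845 in Experiment 3 (adjusted p = 0.882). In AI, 5, 3 and 1 of the 17 differed in the same 3 comparisons, where 10.6%, 6.24% and 0.659% of all genes did. Those of the list that differed included Slc17a3 (0.577 in Experiment 1, 0.521 in Experiment 2) and Slc13a3 (0.476 and 0.436) between Experiments 2 and 1.

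Of 7 regulators, 6 were tested. In Experiment 2, 2 were higher and 3 lower than in Experiment 1, where 35.7% and 35.9% of all genes were. In Experiment 3, 2 were higher and 4 lower than in Experiment 1, where 35.8% and 36.1% were. Against Experiment 2, 5 were higher in Experiment 3, where 9.17% of all genes were. None of the 6 was lower there by edgeR, where 6.63% were. Hnf4a, a nuclear receptor of tubule and liver cells, had 2005 ± 67.4 CPM with NEBNext, 626 ± 14.4 with SMARTseq at 10 ng and 673 ± 26.5 at 0.1 ng (SD, n = 6). It was 2.53-fold and 2.36-fold lower in Experiments 2 and 3 than in Experiment 1. Cebpb was 2.65-fold and 3.23-fold higher, and Maf had log2 fold changes of -0.23 (edgeR adjusted p = 0.130) and -0.43 (adjusted p = 0.00646). Over the 18 libraries, the genes closest to the median centred log2 CPM profile of the 9 members were Ctsb, Dab2, 4833439L19Rik, Aldh6a1 and Zfp36l1, with a mean absolute difference of 0.0494 to 0.0643 and a median of 0.377 over 8743 candidates. The median profile does not describe each transporter, since Slc22a12 lay 0.765, Slc22a30 0.492 and Slc22a7 0.458 from it, farther than the median candidate. The likeness is over libraries of 1 RNA. The profiles are on library totals, where all genes had a median log2 fold change of -0.38 in Experiment 2 against Experiment 1. The median profile of the members went from 0.250 in Experiment 1 to -0.136 in Experiment 2. The likeness does not separate the transporters from that general shift.

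In the Abl clones, set side by side without a test because their table is separate, 7 of the 9 transporters had at most 1 count in every library. A count of 0 would allow up to 0.134 to 0.156 CPM if counts were independent, and more where 1 read counts at several SNPs. Slc22a5 was counted in all 6 clone runs, at 7.49 and 17.3 CPM in Abl.1, 35.96 and 30.3 in Abl.2 and 33.1 and 32.2 in the second run of Abl.2, against 259 to 472 in kidney. Its AI there lay between 0.576 and 0.694. Slc22a8 had 11.1 and 28.4 CPM in Abl.1, with an AI of 0.516 from 213 counts and 0.395 from 631, and at most 1 count in the 4 runs of Abl.2.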

How the data were processed

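The authors aligned reads with STAR 2.5.4a to GRCm38 pseudogenomes of both strains, kept uniquely aligned reads, sampled libraries to equal read numbers and counted alleles at SNPs with samtools. The deposited values are whole-number allelic counts per gene and library, unnormalised. A read over several SNPs counts at each. Deposited AI tables, which hold pooled AI with confidence limits, were not used.

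Samples were grouped by title. CPM used library totals. Abundance was fitted with edgeR 4.0.16 (TMM, filterByExpr, 18 libraries, Benjamini-Hochberg at 0.05). AI differences were fitted with 1 term per library, an allele term and its interaction with the experiment, for genes with at least 10 counts in each of 12 libraries. SE is the estimate divided by the square root of F, and approximate 95% intervals are from it. AI against 0.5 used the proportional test on pooled counts divided by the square of mean QCC, which was estimated with Experiment 1 thinned to equal totals. Wilson intervals cover counting error only. Alternatives used DESeq2 1.42.0, limma 3.58.1 and other scalings and filters. The QCC-corrected two-sample proportional test of AI differences was adjusted by Bonferroni, the other tests of AI differences by Benjamini-Hochberg. R 4.3.3, Python 3.11.15, numpy 2.4.6, pandas 2.3.3 and scipy 1.17.1 were used. The edgeR fits and the QCC estimate were tested on simulated data. Depths and QCC are given per experiment in the report.

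Members and lists were chosen with earlier results of these data known. All 9 members are named, as are other Slc22a genes with at least 50 pooled counts in every experiment (1 is counted but not reported here by name or in the plot), the 3 genes of each of 2 lists with most counts, and the 5 genes closest to the members' median profile.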

Additional observations from a re-analysis of the deposited data

Results flagged for a closer look

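Among 54 sets of 6 libraries (CPM and AI of 9 transporters in 3 experiments), 5 held a library whose gap to its nearest neighbour exceeded Dixon's 95% critical share of the range, where chance gives about 1 set in 20. Replicate 1 of Experiment 1 was highest for Slc22a7 at 318 CPM and for Slc22a13 at 248 CPM. Without it their means were 269 ± 7.63 and 210.4 ± 5.03 CPM (SD, n = 5), in place of 277 ± 21.0 and 217 ± 15.8 (n = 6). Replicate 4 of Experiment 1 was highest in AI for Slc22a2, at 0.568, and without it the pooled AI was 0.528. Replicate 4 of Experiment 3 was lowest in AI for Slc22a6, at 0.472, and highest for Slc22a7, at 0.549, and without it the pooled values were 0.530 and 0.507.

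The allele effect differed between Experiments 2 and 1 by a log2 odds ratio of 0.21 for Slc22a6, 0.23 for Slc22a7 and -0.27 for Slc22a12, and between Experiments 3 and 1 by 0.25 for Slc22a7 and -0.38 for Slc22a12. Kit and input differ at once in both comparisons and cannot be told apart.

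In the clonal lines, which no comparison used, Slc22a5 had 7.49 and 17.3 CPM in Abl.1, 35.96 and 30.3 in Abl.2 and 33.1 and 32.2 in its second run, and Slc22a8 had 11.1 and 28.4 CPM in Abl.1, above the limit that a count of 0 allows.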

How the results depend on the processing

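The numbers of transporters called in abundance, 8, 8 and 4 for Experiments 2 and 1, 3 and 1, and 3 and 2, ranged from 7 to 9, 8 to 9 and 4 to 5 over 6 alternatives each, and from 7 to 8, at 8, and from 4 to 5 with 1 library left out. Slc22a2 lost its call between Experiments 2 and 1 in 8 of 12 such fits. On library totals alone Slc22a2 reversed to -0.23 and -0.11 in Experiments 2 and 3 minus Experiment 1, and Slc22a4 to -0.31 in Experiment 2.

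The calls of AI differences, 3, 2 and 0, fell to 0 and 0 with limma on logit AI and with the QCC-corrected two-sample test. The two-sample test was adjusted by Bonferroni, the other tests of AI differences by Benjamini-Hochberg, so their counts of calls are at unlike thresholds. With 1 library left out, the edgeR calls ranged from 3 to 4, from 1 to 2 and at 0. Libraries with the same number deviated with correlations between -0.0195 and 0.0214, so the numbers do not pair them. With the replicate block, 7, 8 and 4 transporters were called in abundance and 3, 1 and 0 in AI difference. In AI against 0.5, 5, 4 and 2 calls became 8, 6 and 5 without QCC correction and 8, 6 and 4 with Benjamini-Hochberg adjustment, and were 5, 4 and 2 with any 1 library left out. Over all genes, AI differences numbered 1069 between Experiments 2 and 1 (691 with limma, 431 with the two-sample test), 607 between 3 and 1 (286 with the two-sample test) and 66 between 3 and 2 (26 with limma, 28 with the block). Calls against 0.5 numbered 2003, 2622 and 1452, and 4001, 4857 and 3033 with Benjamini-Hochberg, 3827, 3770 and 4104 without QCC, and 3758, 4726 and 2627 with an edgeR allele term. With the null at the median AI, Slc22a13 reversed to -0.00220 from it in Experiment 3.

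With 1 library left out, values near 0 changed sign. AI differences ranged from -0.0435 to 0.0385 (Slc22a13), -0.0449 to 0.0350 (Slc22a2) and -0.205 to 0.222 (Slc22a4) for Experiments 2 and 1, from -0.0683 to 0.0259 (Slc22a2) for 3 and 1, and from -0.0641 to 0.0303 (Slc22a2), -0.0756 to 0.0290 (Slc22a5), -0.0242 to 0.0409 (Slc22a7) and -0.0437 to 0.0253 (Slc22a8) for 3 and 2. The abundance change of Slc22a4 ranged from -0.000504 to 0.0640 for 2 and 1, and the distance of AI of Slc22a13 from 0.5 between -0.0134 and 0.000723 at 10 ng and between -0.00242 and 0.00329 at 0.1 ng. The causes were not tested. Slc22a30, with 20 to 62 counts per library, has the widest intervals. The mean CPM moved by more than 1 SD with TMM library sizes in 22 of 27 cases.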
